A study of Mus musculus with 9 samples.

Results

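GABA-A receptors and ionotropic glutamate receptors are the ion channels that carry fast inhibition and fast excitation between neurons. The 27 genes described here encode subunits of these channels, and they were taken by symbol from a table of 27179 genes. They comprise 11 GABA-A, 4 AMPA, 5 kainate and 7 NMDA receptor subunits. Other subunits of these families are not analysed here. All 27 had enough counts to be among the 17344 genes tested.

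RNA was sequenced in bulk from punches of the hypothalamic paraventricular nucleus (PVN) of 9 male, wild type C57BL/6 mice (substrain C57BL/6J in the study's methods), 3 in each of 3 groups. Control mice ate a diet with 16% of its calories from fat. HFD mice ate a diet with 60% of its calories from fat for the same 12 weeks, starting at 5 weeks of age. HFD+Mino mice ate the 60% diet for 12 weeks and drank minocycline, a tetracycline antibiotic, at 40 mg/kg/day over the last 6 weeks. The labels give an age of postnatal day 35 for all samples, and no group received minocycline without the HFD. Levels are given as CPM, read counts scaled to a common library size, and changes as log2 fold changes ± SE. A gene was called when its false discovery rate (FDR) was under 0.01 and its fold change at least 1.5. FDR values are Benjamini-Hochberg adjusted over all tested genes and come from the quasi-likelihood test of edgeR. This test sets the difference between groups against the spread between mice within groups, which includes differences between their punches. A looser limit, an FDR under 0.05 at any fold, is given beside the limit for a call.

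GABA-A receptors are chloride channels assembled from several subunits around one pore, usually from alpha and beta subunits with a gamma, delta, epsilon or theta subunit. AMPA receptors carry most of the fast excitatory current, kainate receptors modulate excitability and release, and NMDA receptors admit calcium and require the obligatory subunit encoded by Grin1. In the PVN, neurosecretory and preautonomic neurons receive dense GABA and glutamate input.

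Several GABA-A subunit genes lie side by side in the genome. Gabre, Gabra3 and Gabrq, which encode the epsilon, alpha 3 and theta subunits, occupy 585.7 kb of chrX:72256926-72842607 (GRCm38.p6). Gabrg1, Gabra2, Gabra4 and Gabrb1 lie within 1398.5 kb on chromosome 5, and Gabrg3 and Gabra5 within 874.6 kb on chromosome 7. In the X-linked cluster, all 3 genes had higher levels in every HFD library than in any of the 6 others, as did 10 of the 27 members and 13.4% of all tested genes. The sequences upstream of these 3 genes are shown because the cluster's members shared this order of groups, though Gabre alone had an FDR under 0.05 between HFD and Control. They come from RefSeq (GRCm38.p6), run 5′ to 3′ on the strand of the gene, and leave out bases inside the gene's annotated span. Capitals mark CpG dinucleotides.

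Gabre, chrX:72274829-72274971, minus strand: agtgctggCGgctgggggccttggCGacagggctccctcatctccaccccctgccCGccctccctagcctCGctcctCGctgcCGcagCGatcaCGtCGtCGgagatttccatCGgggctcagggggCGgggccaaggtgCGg
Gabra3, chrX:72656920-72657169, minus strand: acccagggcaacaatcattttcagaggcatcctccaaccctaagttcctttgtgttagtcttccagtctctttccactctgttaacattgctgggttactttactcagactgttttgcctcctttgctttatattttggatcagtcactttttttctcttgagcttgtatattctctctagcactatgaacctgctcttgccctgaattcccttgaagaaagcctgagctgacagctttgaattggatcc
Gabrq, chrX:72824928-72825162, plus strand: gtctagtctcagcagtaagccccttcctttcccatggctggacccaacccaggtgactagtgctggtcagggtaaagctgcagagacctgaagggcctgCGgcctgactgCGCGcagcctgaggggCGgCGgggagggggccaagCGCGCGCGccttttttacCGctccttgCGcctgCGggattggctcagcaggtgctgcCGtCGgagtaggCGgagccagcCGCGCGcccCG

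The upstream windows differed in composition. In the 250 nt before the start site used by the promoter table, Gabre held 21 CpG, Gabrq 19 and Gabra3 0, against a median of 6 over 32851 such windows of all genes. For Gabre 107 nt of this window lie inside the gene's annotated span, with 13 of the 21 CpG outside it, and for Gabrq 15 nt do. The letters GGGCGG were found on either strand in the windows of Gabre and Gabrq and not in that of Gabra3, and 32.7% of all windows hold them. TATAA was found in the window of Gabra3 alone of these 3, on the opposite strand, and 22.8% of all windows hold it. CCAAT stood on the opposite strand in the windows of Gabra3 and Gabrq (33.8% of all windows, either strand). Neither CACGTG (6.0%) nor TGACGTCA (1.5%) was found in any of the 3. These motifs were searched on both strands.

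Markers of the punched tissue differed between libraries. Avp and Oxt, the vasopressin and oxytocin genes that define magnocellular neurons of the PVN, stood at 0.149 and 0.770 CPM in Control replicate 1. Elsewhere Avp lay between 157 and 28049 CPM and was highest in HFD+Mino replicates 1 and 2, while Otp, a developmental factor of these neurons, was at most 2.77 CPM in any library. The 7 PVN neuron markers summed to 39.15 CPM in Control replicate 1, 947 and 2577 CPM in the other Controls, 2504 to 3764 CPM in HFD and 3111 to 37760 CPM in HFD+Mino. In HFD+Mino replicate 1 most of this sum was Avp and Oxt, at 28049 and 8907 CPM. Crh and Trh were also highest in HFD+Mino replicates 1 and 2. Sim1 was highest in HFD+Mino replicate 2, but replicate 1 lay below the HFD libraries, and Otp was highest in neither replicate. Sim1 had 16.6, 10.8 and 21.6 CPM in HFD and 10.1, 35.7 and 2.51 CPM in HFD+Mino. Otp had 1.15, 1.13 and 0.971 CPM in HFD and 0.616, 0.37 and 0.519 CPM in HFD+Mino. The 6 oligodendrocyte markers summed to 29220 CPM in Control replicate 1 and to between 2221 and 6886 CPM elsewhere. Control replicate 2 held 813 CPM of Hcrt, the orexin gene of the lateral hypothalamus, and Control replicate 1 held 73.4 CPM. No other library held more than 7.02 CPM. Pmch, another marker of neighbouring regions, had 391 and 2560 CPM in Control replicates 1 and 2 and at most 51.2 CPM elsewhere. The 5 astrocyte markers summed to 683 to 1104 CPM in Control, 838 to 941 CPM in HFD and 379 to 579 CPM in HFD+Mino, and 4 of the 5 were lower in HFD+Mino than in HFD at an FDR under 0.05 (edgeR). The 4 markers of oligodendrocyte precursors, which themselves carry AMPA and NMDA receptors, summed to 68.6 to 93.6 CPM in Control, 122 to 127 CPM in HFD and 44.0 to 66.1 CPM in HFD+Mino, with 3 of 4 lower and Olig2 higher in HFD+Mino than in HFD at that limit. The 8 general neuron markers overlapped between groups, with sums of 4455 to 8718 CPM over the 9 libraries, and 2 of the 8, Rbfox3 and Syt1, were lower in HFD+Mino than in HFD at that limit. Rn45s, the ribosomal RNA precursor, lay between 239 and 461 CPM in the Controls, 3477 and 3829 CPM in the HFD libraries and 426 and 1346 CPM in the HFD+Mino libraries. The 4 ependymal markers summed to 8.30 to 120 CPM in Control, 136 to 239 CPM in HFD and 251 to 494 CPM in HFD+Mino. The 5 endothelial markers had their highest sums, 414 and 394 CPM, in replicates 1 and 2 of HFD+Mino, against 146 to 312 CPM in the other 7 libraries. These markers moved both ways: Ly6c1 was higher and Flt1 lower in HFD+Mino than in HFD at an FDR under 0.05 (edgeR). Their median log2 fold change was 0.03. Total counts ran from 17728590 to 42326213. The part of these differences in the receptor results was not tested, and in bulk tissue fewer cells of a type and less RNA per cell cannot be told apart.

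**Figure D1:**
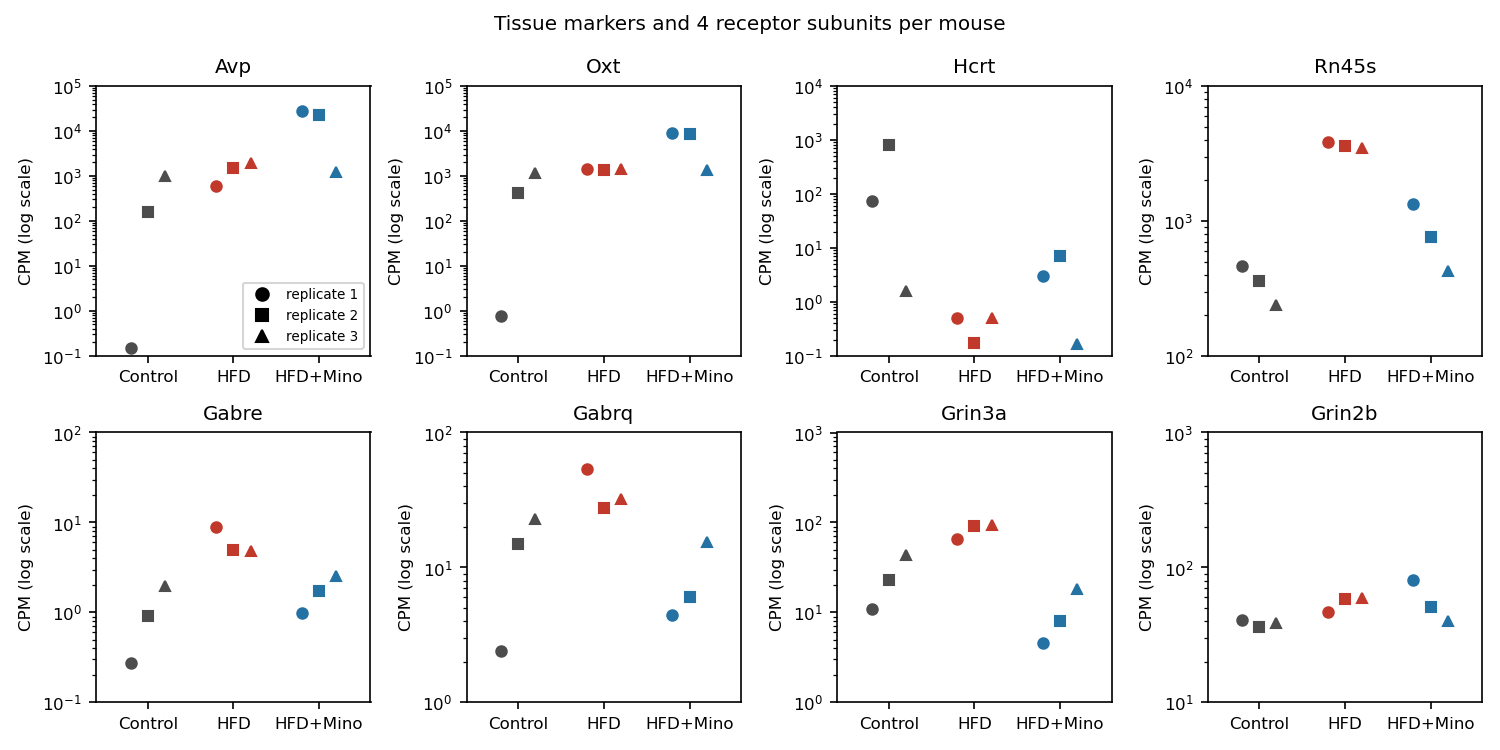
CPM on a log scale (vertical axis) in each mouse of the 3 groups, for the markers Avp, Oxt, Hcrt and Rn45s and for 4 receptor subunit genes; marker shapes give the replicate number. Control replicate 1 stands at 0.149 CPM of Avp, and Gabre and Gabrq have their lowest values, 0.273 and 2.38 CPM, in that library.

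Per kb of exon and averaged over the 9 libraries, the AMPA subunit gene Gria1 had the highest level of the members, at 36.8 CPM per kb, with a range over libraries of 21.95 to 58.7. Gabra3, Gabrb2, Gria2 and Gabra5 followed, with averages of 25.95, 22.3, 22.2 and 20.9 CPM per kb and overlapping ranges. Grin1 had 11.4 CPM per kb and was the highest of the NMDA subunits. The lowest levels were those of Grin2a, at 0.0785 CPM per kb, and Grin3b, at 0.164. Grin2d, Gabre and Gabrg3 followed from below, at 0.389, 0.636 and 0.934 CPM per kb. Neighbours in this order overlapped in their ranges over libraries.

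HFD was first compared with Control. Of the 27 members 0 were called, where 1.74% of all tested genes were. Gabre was the only member with an FDR under 0.05, where 5.77% of all tested genes passed, 2.57% as higher. An unadjusted p under 0.05 was reached by 11 members, 9 of them higher and 2 lower in HFD, against 20.5% of all tested genes. The estimates of 22 members lay above 0, and the median over the members was 0.52 on the log2 scale, against 0.0043 over the 17344 tested genes. All 3 HFD libraries lay above all 3 Controls for 12 members and below them for 2, which 19.7% and 16% of tested genes did. By family, the median log2 fold change was 0.64 for GABA-A, 0.47 for AMPA, 0.48 for kainate and 0.52 for NMDA subunits.

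Among GABA-A subunits, Gabre, whose epsilon subunit is enriched in hypothalamus and brainstem, had 0.273, 0.903 and 1.97 CPM in Control and 8.93, 4.96 and 4.80 CPM in HFD. The groups did not overlap, and the log2 fold change was 2.57 ± 0.65 (edgeR quasi-likelihood FDR 0.0428, n = 3 per group). The FDR rose above 0.05 without Control replicate 1 (0.0848), Control replicate 2 (0.170), HFD replicate 1 (0.166), HFD replicate 2 (0.0999), HFD replicate 3 (0.109) or HFD+Mino replicate 1 (0.0525). Gabrq, which encodes the theta subunit, had 2.38, 14.96 and 22.9 CPM in Control and 53.8, 27.7 and 32.3 CPM in HFD. These groups did not overlap either, and the change of 1.497 ± 0.68 had an FDR of 0.241 (edgeR quasi-likelihood test). Gabrg1, a gamma subunit gene, had 69.7, 143 and 129 CPM in Control and 253, 195 and 188 CPM in HFD, with a change of 0.90 ± 0.33 (edgeR FDR 0.154). Gabrd, the delta subunit gene of extrasynaptic receptors, varied within groups more than between them, from 5.28 to 33.5 CPM in Control and from 0.954 to 12.6 CPM in HFD. Gabrb1, a beta subunit gene, differed least in its family, with means of 119.0 ± 24.5 CPM in Control and 131.3 ± 1.97 CPM in HFD (SD, n = 3).

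Among glutamate receptor subunits, the groups were farthest apart for NMDA members. Grin3a encodes GluN3A, which lowers calcium entry through NMDA receptors. The gene lies at chr4:49661611-49846023 on the minus strand (GRCm38.p6). Its levels were 10.9, 22.8 and 43.3 CPM in Control and 65.6, 91.7 and 93.8 CPM in HFD, without overlap, with a change of 1.71 ± 0.53 (edgeR FDR 0.0924). Grin2d, which encodes the slowly deactivating GluN2D, went the other way, with 1.52, 4.49 and 7.39 CPM in Control and 0.301, 0.899 and 0.448 CPM in HFD. Its change was -2.99 ± 0.86 (edgeR FDR 0.0709). The study's methods name no library step that keeps the strand of the RNA and no strand setting for the counting. Grin2d shares 643 nt of exon with the antisense gene Gm45441, whose reads may therefore not be told apart from its own. Grik5 encodes GluK5, a kainate subunit that needs a partner subunit to form a channel. It was the other member with lower levels in every HFD library, at 20.3, 19.9 and 35.9 CPM in Control and 9.39, 14.1 and 11.1 CPM in HFD, with a change of -1.13 ± 0.35 (edgeR FDR 0.0856). Gria1 had 133, 169 and 244 CPM in Control and 354, 336 and 307 CPM in HFD, with a change of 0.87 ± 0.25 (edgeR FDR 0.0696). None of these 4 passed either limit in this comparison.

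Between Control and HFD+Mino, libraries of the same replicate number correlated weakly in their deviations from the group mean (0.135, 0.163 and 0.292). Control replicate 2 and HFD replicate 1, of unlike numbers, reached 0.167, and no source names a shared litter or batch. A block on the replicate number was chosen from these same counts, so its calls cannot decide whether libraries were paired. When that number was a block in the 2 groups, 4 members were called between HFD and Control, against 6.22% of all tested genes. They were Gabrg1, Gabre, Gria1 and Grin3a, all higher in HFD. DESeq2 called Gabre as higher and Grin2d as lower in HFD, and 6.91% of all tested genes. Without Control replicate 1, the library almost without Avp and Oxt, 0 members and 1.01% of all tested genes were called, the estimates of 21 members lay above 0 and their median was 0.34 instead of 0.52.

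**Figure D2:**
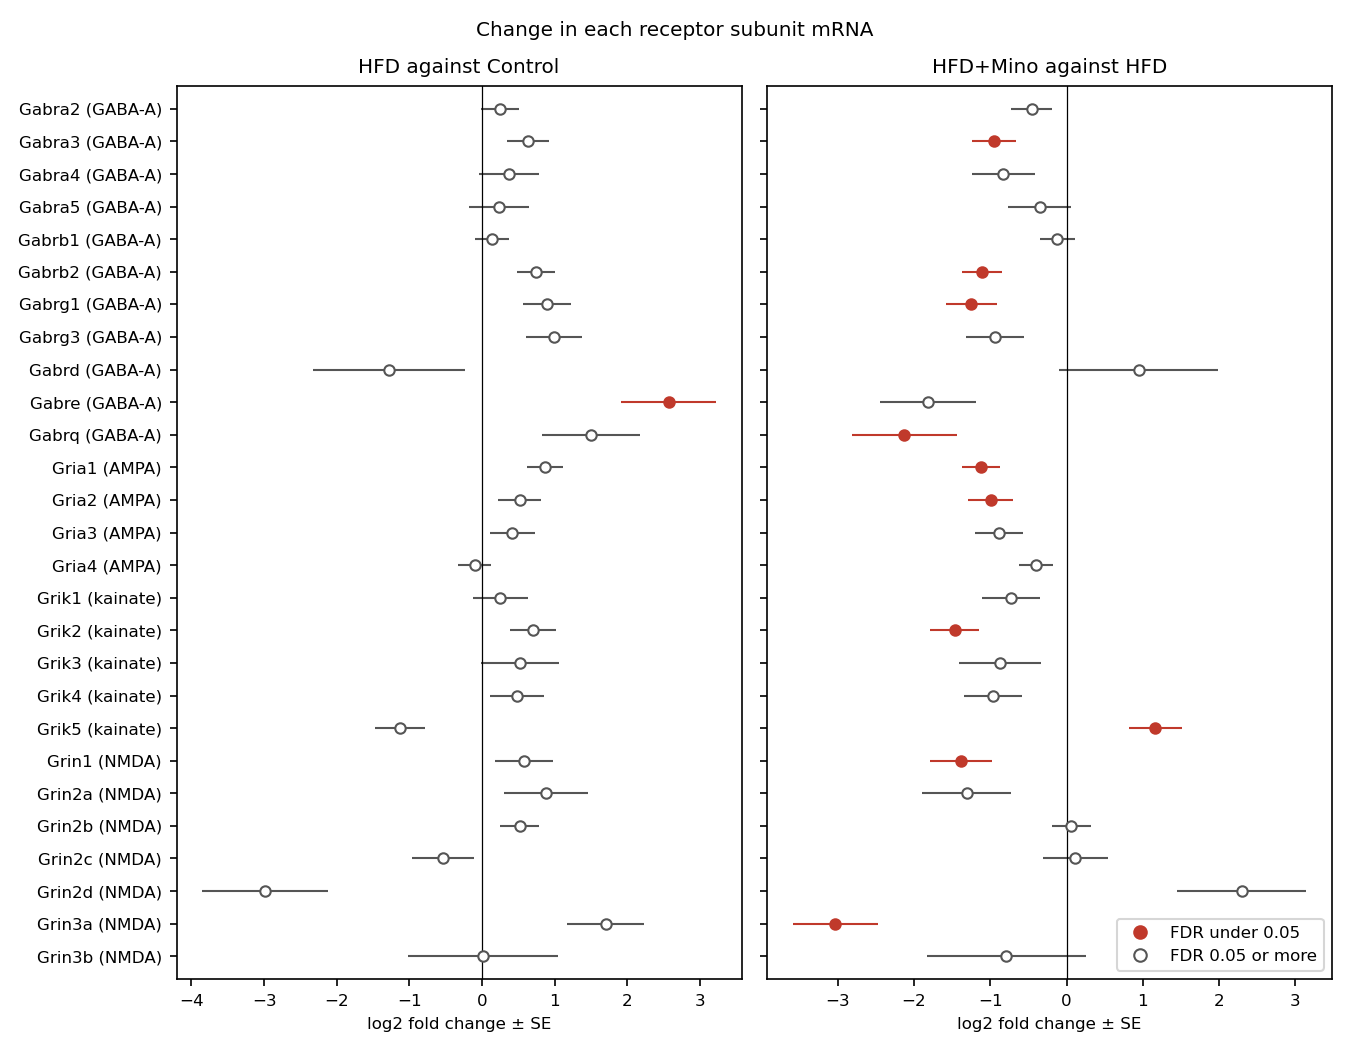
Log2 fold change (horizontal axis, points) with its SE (bars) for each of the 27 members (vertical axis), for HFD against Control and HFD+Mino against HFD; filled points had an FDR under 0.05. In HFD against Control 22 points lie above 0 and Gabre alone is filled, and in HFD+Mino against HFD 22 lie below 0 and 10 are filled; both comparisons use the same 3 HFD libraries.

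HFD+Mino was then compared with HFD, which asks what minocycline changed under the same diet. Of the 27 members, Grin3a was the only one called, lower in HFD+Mino, where 4.15% of all tested genes were called, 2.16% as lower. At an FDR under 0.05, 9 members were lower and 1 was higher, against 12.9% and 14.6% of all tested genes, and 16 reached an unadjusted p under 0.05, against 41.3%. The median over the members was -0.89 on the log2 scale, against 0.0089 over all tested genes. All 3 HFD+Mino libraries lay below all 3 HFD libraries for 14 members and above them for 1, which 23.5% and 23.3% of tested genes did. Both comparisons share the HFD libraries, so their opposite signs are not independent of each other.

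Grin3a had 4.55, 7.95 and 18.1 CPM in HFD+Mino, against 65.6, 91.7 and 93.8 CPM in HFD. The highest HFD+Mino library lay below the lowest HFD library, and the change was -3.03 ± 0.56 (edgeR quasi-likelihood FDR 0.0080, n = 3 per group), an 8.17-fold lower level. The FDR stayed under 0.05 when any 1 of the 9 libraries was left out. It rose above 0.01 without Control replicate 2 (0.0167), HFD replicate 1 (0.0255), HFD replicate 2 (0.0310), HFD replicate 3 (0.0397), HFD+Mino replicate 1 (0.0385) or HFD+Mino replicate 2 (0.0261). Grin1, the obligatory NMDA subunit gene, had 151, 161 and 173 CPM in HFD and 55.4, 29.4 and 101 CPM in HFD+Mino. It was lower, with a change of -1.38 ± 0.41 (edgeR FDR 0.0301). Grin1 shares 1307 nt of exon with the antisense gene Grin1os, whose reads may likewise not be told apart from its own. Grin2b, a GluN2 subunit gene of forebrain neurons, did not share this order, at 46.6, 58.7 and 59.5 CPM in HFD and 80.9, 51.0 and 40.4 CPM in HFD+Mino. Grin2d had 1.16, 0.817 and 6.26 CPM in HFD+Mino, so that its change of 2.30 ± 0.85 (edgeR FDR 0.0639) rested mostly on HFD+Mino replicate 3, and it was 0.82 ± 0.70 without that library.

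Of the AMPA subunits, the genes of GluA1 and GluA2 were lower at an FDR under 0.05. Gria1 had 354, 336 and 307 CPM in HFD and 142, 134 and 181 CPM in HFD+Mino, with a change of -1.13 ± 0.25 (edgeR FDR 0.0128). Gria2, whose edited subunit makes AMPA receptors nearly impermeable to calcium, had 508, 456 and 448 CPM in HFD and 172, 221 and 314 CPM in HFD+Mino, with a change of -0.996 ± 0.30 (edgeR FDR 0.0312). Neither gene overlapped between the groups. Gria3 and Gria4 had changes of -0.89 ± 0.31 and -0.40 ± 0.22 that did not pass (edgeR FDR 0.0560 and 0.201).

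The kainate subunits moved in both directions. Grik2, the gene of the widely expressed GluK2, was lower, with 49.6, 44.5 and 49.2 CPM in HFD and 11.1, 13.3 and 27.6 CPM in HFD+Mino and a change of -1.46 ± 0.32 (edgeR FDR 0.0122). Grik5 was the 1 member that was higher, with 9.39, 14.1 and 11.1 CPM in HFD and 30.2, 15.3 and 32.2 CPM in HFD+Mino and a change of 1.17 ± 0.35 (edgeR FDR 0.0308). HFD+Mino replicate 2 lay close to the HFD range for Grik5, whereas for Grik2 HFD+Mino replicate 3 was nearest to it. Grik1, Grik3 and Grik4 did not pass, with changes from -0.73 to -0.96.

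Among GABA-A subunits, Gabra3, Gabrb2, Gabrg1 and Gabrq were lower at an FDR under 0.05. Gabrb2, a beta subunit gene, had 151, 202 and 266 CPM in HFD and 112, 92.9 and 83.0 CPM in HFD+Mino, with a change of -1.11 ± 0.27 (edgeR FDR 0.0155). Gabrg1 had 53.6, 97.8 and 116 CPM in HFD+Mino, with a change of -1.25 ± 0.33 (edgeR FDR 0.0218). Gabra3 had 155, 134 and 135 CPM in HFD and 50.4, 71.8 and 96.6 CPM in HFD+Mino, with a change of -0.96 ± 0.29 (edgeR FDR 0.0325). Gabrq, its neighbour on the X chromosome, had 4.42, 6.09 and 15.5 CPM in HFD+Mino, below all HFD libraries, with a change of -2.13 ± 0.69 (edgeR FDR 0.0420). Gabre, the third gene of that cluster, had 0.993, 1.75 and 2.54 CPM in HFD+Mino and a change of -1.82 ± 0.63 (edgeR FDR 0.0532). Gabra2, Gabra4, Gabra5 and Gabrb1 overlapped between the groups.

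Single libraries weighed on these counts. The number of members with an FDR under 0.05 was 10 with all libraries. It was 4 without HFD replicate 1, 3 without HFD replicate 2 and 1 without HFD replicate 3. It was 3 without HFD+Mino replicate 1 and 16 without HFD+Mino replicate 3. Called genes made up 4.15% of all tested genes with all libraries. In the same order of libraries left out, they made up 0.307, 0.328, 0.162, 0.59 and 21.4%. Shares of all tested genes at an FDR under 0.05 are not given for these leave-out fits. HFD+Mino replicate 3 was the HFD+Mino library with the lowest Avp, 1218 CPM against 22180 and 28049 CPM, and without it 10 members and 21.4% of all tested genes were called. With the replicate block in Control and HFD+Mino, 12 members were called, 11 lower and Grik5 higher, against 25.6% of all tested genes. DESeq2 called 9 members and 23.0% of all tested genes. Control replicate 1 is in neither of these groups, but it enters the fit, and without it Gria1 and Grin3a were called, both lower, against 5.27% of all tested genes.

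**Figure D3:**
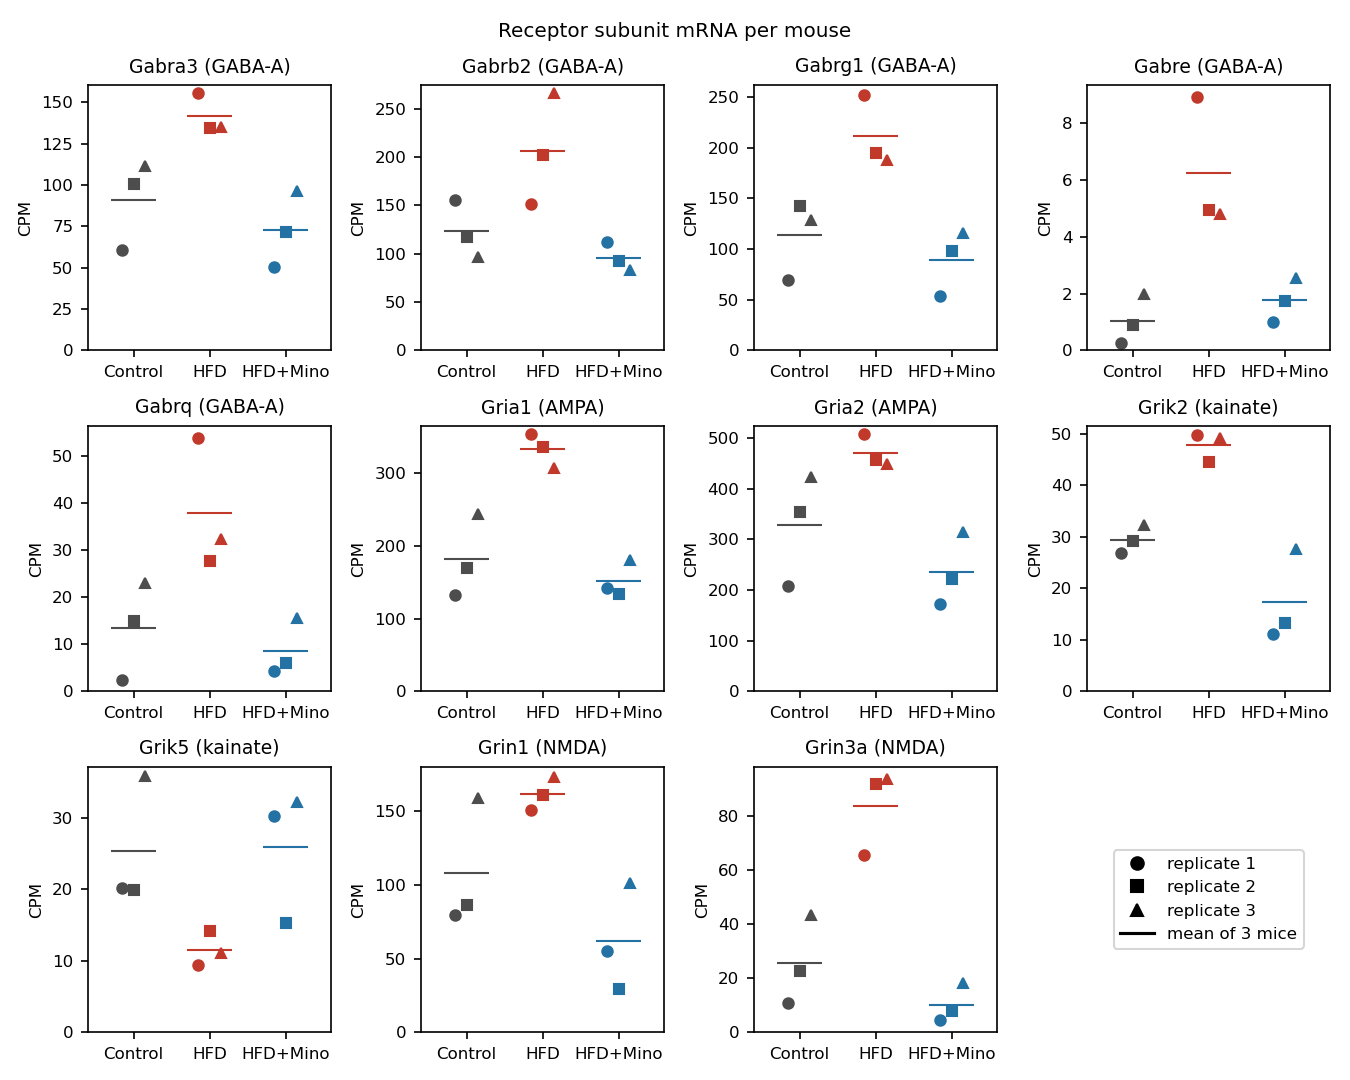
CPM (vertical axes, from 0) in each mouse of Control, HFD and HFD+Mino for the 11 members with an FDR under 0.05 in HFD against Control or HFD+Mino against HFD; marker shapes give the replicate number and lines the mean of 3 mice. Grin3a lies between 65.6 and 93.8 CPM in HFD and at 43.3 CPM or less in the other groups, and Grik5 is the 1 gene whose HFD libraries are the lowest.

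Between HFD+Mino and Control, 0 members were called by edgeR, where 0.0% of all tested genes were, and 0 had an FDR under 0.05. An unadjusted p under 0.05 was reached by 4 members, Grin2b higher and Gria4, Grik2 and Grin3a lower, against 21.3% of all tested genes. The members' median was -0.42 on the log2 scale, against -0.0225 over all tested genes. Leaving out Control replicate 3 brought this median to -0.25, and leaving out HFD+Mino replicate 1 brought it to -0.24. No member had groups without overlap, which 8.93% of tested genes had in the higher and 10.1% in the lower direction. Grin3a differed by -1.32 (edgeR FDR 0.193), with 10.9, 22.8 and 43.3 CPM in Control against 4.55, 7.95 and 18.1 CPM in HFD+Mino. With the replicate block it was called (FDR 0.0057), the 1 member that was, against 3.18% of all tested genes. Without HFD+Mino replicate 3, Grik2 was the 1 member called, against 6.28% of all tested genes. DESeq2 called 0 members and 1.59% of all tested genes.

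The 3-way test asks whether any group differs. A call in it also required HFD to be the highest or the lowest of the 3 groups. Its fold change, again at least 1.5, was that of HFD from the average log2 level of Control, HFD and HFD+Mino. By this rule 0 members were called, against 2.13% of all tested genes. At an FDR under 0.05, 6 members were HFD-higher, against 8.34% of all tested genes, and 0 were HFD-lower. They were Gabrb2, Gabrg1, Gabre, Gria1, Grik2 and Grin3a. Grin3a had the smallest FDR of them, 0.0140 (edgeR quasi-likelihood test). Each of the 3 HFD libraries lay above all 6 others for 10 members, which 13.4% of tested genes did. These were Gabra3, Gabrg1, Gabrg3, Gabre and Gabrq of the GABA-A family, Gria1 and Gria2 of the AMPA family, Grik2, Grin2a and Grin3a. Grik5 was the 1 member with all HFD libraries below the others (9.62% of tested genes). The block called 9 members and 13.2% of all tested genes, and DESeq2 called 8 members and 13.6%. Without Control replicate 1, Grin3a was called as HFD-higher, against 1.75% of all tested genes.

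The makeup of each glutamate receptor family was described by each subunit's share of the family's summed CPM per kb, a composition in which 1 share falls when another rises. Grin3a held 6.94, 13.2 and 14.6% of the NMDA sum in Control, 22.2, 27 and 26.1% in HFD and 3.55, 10.0 and 9.04% in HFD+Mino. Grin2d held 3.72% ± 1.69 of it in the Controls, 0.302% ± 0.162 under HFD and 3.11% ± 2.29 under HFD+Mino (SD, n = 3 each), and Grin2c held 8.35% ± 3.76, 3.28% ± 0.45 and 8.40% ± 1.19. Both made up less of the family in every HFD library than in any other, while Grin3a made up more. Grin2b stood apart by library, with 31.2 and 31.8% in HFD+Mino replicates 1 and 2, the libraries with the most Avp, and 9.95% in replicate 3. In the kainate family Grik5 held 34.7, 25.6 and 32.4% in Control, 9.67, 17.2 and 13.0% in HFD and 51.3, 35.5 and 33.9% in HFD+Mino. In the AMPA family Gria1 held 41.0% ± 3.76 in the Controls, 51.1% ± 1.86 under HFD and 45.5% ± 5.18 under HFD+Mino. Gria4 held 22.8% ± 3.35, 14.2% ± 2.14 and 20.9% ± 3.52 in the same order. Gria2 varied little, between 24.0 and 30.7% over the 9 libraries.

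**Figure D4:**
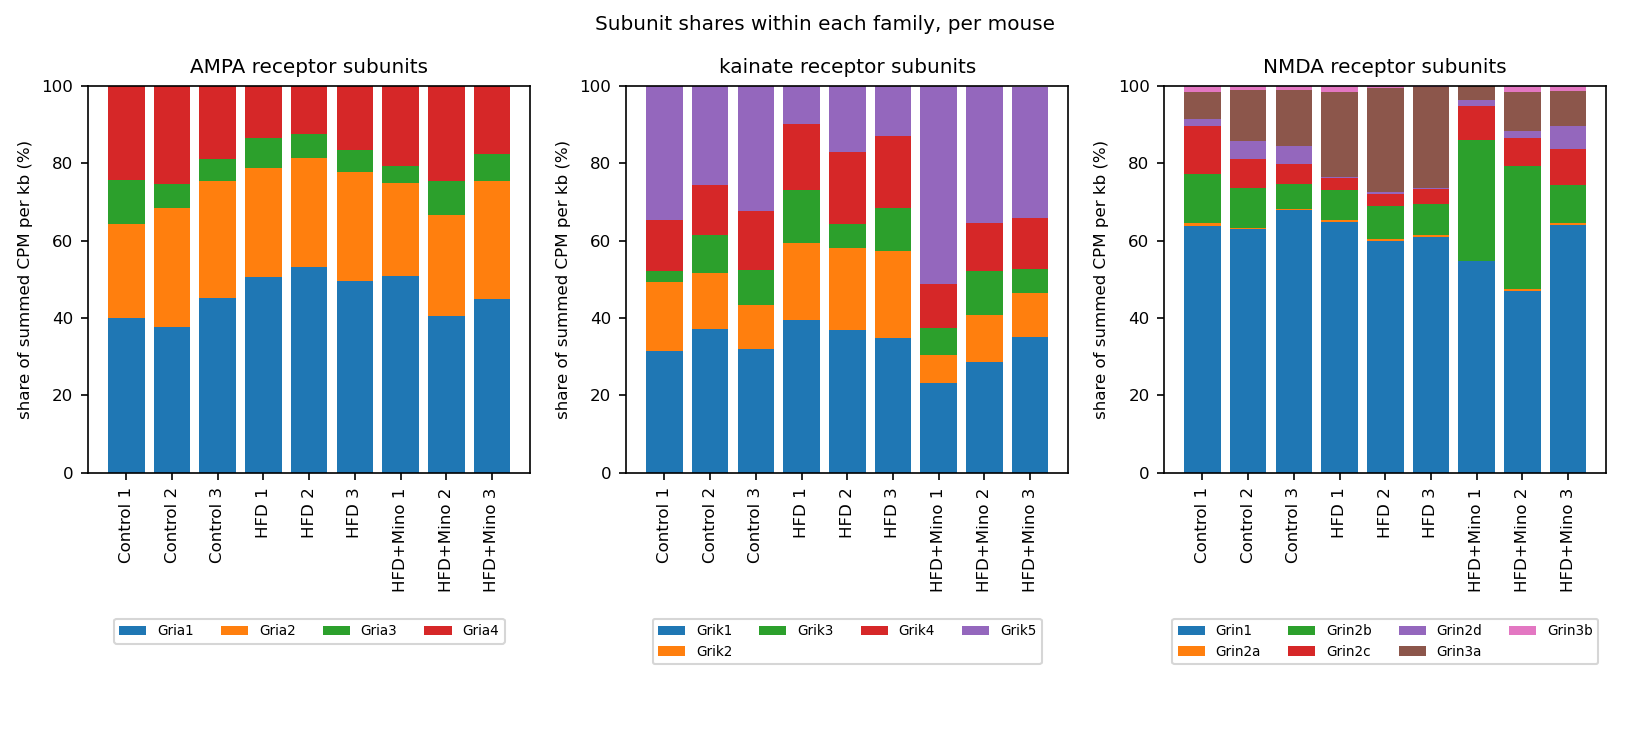
Share of each subunit in its family's summed CPM per kb (vertical axis, %) in each of the 9 libraries (bars), for the AMPA, kainate and NMDA families. The Grin3a segment spans 22.2 to 27% in HFD and at most 14.6% elsewhere, and the Grik5 segment is smallest in the 3 HFD bars.

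By the median the members were longer than the tested genes, and changes varied with exon length across all genes. Exon length had a median of 6658 nt over the members, with a range of 2875 to 24842 nt, and of 4334 nt over all tested genes. Across 15619 tested genes with a length, the log2 fold change of HFD+Mino against HFD had a correlation of -0.468 with log10 exon length. That of HFD against Control had 0.251, and that of HFD+Mino against Control had -0.331. Over the 27 members these correlations were -0.224, 0.241 and 0.033. Genes share the libraries and are not independent replicates. With the trend of each library on exon length removed, the members' median became 0.22 in HFD against Control and -0.44 in HFD+Mino against HFD. In HFD+Mino against Control it became -0.25, from -0.42 with the trend left in. Under this setting 0 members were called in HFD+Mino against HFD, where 2.70% of all tested genes were. Gabra3, Gria1 and Grin3a had an FDR under 0.05 there as lower, and Grik5 and Grin2d as higher, of which Grin2d did not pass with the trend left in, with edgeR changes of -2.42 for Grin3a (FDR 0.0132) and 1.49 for Grik5 (FDR 0.0132). Gabrb2, Gabrg1, Gabrq, Gria2, Grik2 and Grin1 did not pass under it.

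**Figure D5:**
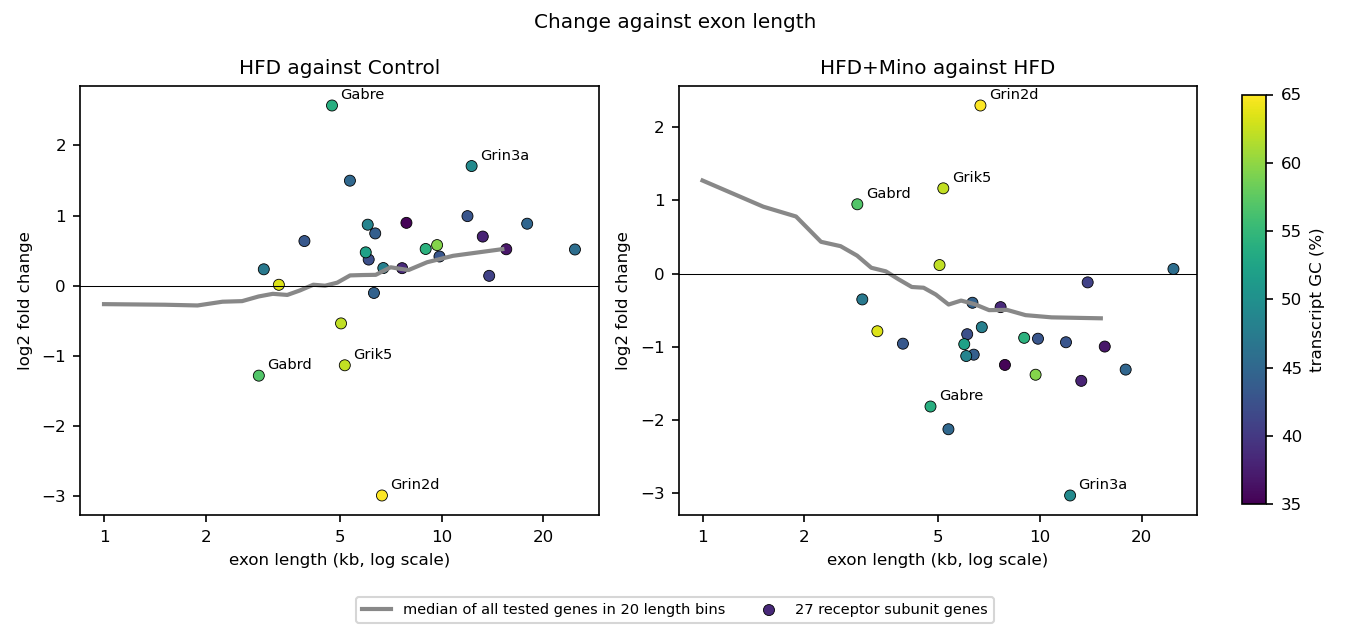
Log2 fold change (vertical axis) against exon length (horizontal axis, kb, log scale) for the 27 members, coloured by the GC content of their longest transcript, with the median of all tested genes in 20 length bins as a grey line. The grey line runs from -0.26 to 0.52 in HFD against Control and from 1.27 to -0.61 in HFD+Mino against HFD; Gabre, Grin3a, Grin2d and Grik5 lie far from it.

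Changes also differed with GC content. GC content was that of the longest protein-coding transcript. Of the 9 members with at least 50% GC, 4 had estimates below 0 in HFD against Control, namely Gabrd, Grin2c, Grik5 and Grin2d. Of the other 18 members 1 had, Gria4. Grin1, at 59.4% GC, and Gabre, at 53.8%, were GC-rich members with estimates above 0. The correlation of change with GC content was -0.49 over the 27 members (Spearman's rho -0.34) and -0.103 over all genes. To show what these sequences look like, the GC-richest 100 nt within a single coding exon are printed for Grik5, Grin1 and Gabrg1. Gabrg1 is the member with the lowest GC content (35.3%). Stretches across exon junctions or outside the coding sequence were not searched. In the longest protein-coding transcript the richest 100 nt had 85% GC in Grik5, 85% in Grin1 and 58% in Gabrg1. They come from GENCODE M21 transcripts (GRCm38), with CpG in capitals.

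Grik5, exon 20 of 20, chr7:25010535-25010634, minus strand, 85% GC: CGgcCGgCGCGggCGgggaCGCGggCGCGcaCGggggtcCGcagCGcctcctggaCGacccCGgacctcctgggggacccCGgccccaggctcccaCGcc
Grin1, exon 6 of 21, chr2:25305298-25305397, minus strand, 66% GC: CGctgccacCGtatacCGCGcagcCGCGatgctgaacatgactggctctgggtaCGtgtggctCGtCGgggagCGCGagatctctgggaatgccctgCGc
Gabrg1, exon 9 of 9, chr5:70754115-70754214, minus strand, 52% GC: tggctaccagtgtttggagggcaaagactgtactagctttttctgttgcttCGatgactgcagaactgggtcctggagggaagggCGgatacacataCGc

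These windows held 16 CpG in Grik5, 12 in Grin1 and 3 in Gabrg1. Grik5 was lower in HFD than in Control in every library, while Gabrg1 was higher in every library. Grin1 overlapped between these groups, since Control replicate 3, at 159 CPM, lay above HFD replicate 1, at 151 CPM.

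Genes that work with the receptors were taken from 6 lists with 75 genes in all, every one of them tested. In HFD against Control 2 of the 75 were called, both higher in HFD, as were 0.317% of all tested genes. Lhfpl4, which clusters GABA-A receptors at synapses, had 29.8, 33.5 and 64.6 CPM in Control and 162, 147 and 147 CPM in HFD, with a change of 1.83 ± 0.29 (edgeR FDR 0.0047). Camk2a, the kinase alpha subunit that binds NMDA receptors at excitatory synapses, had 42.8, 49.5 and 69.2 CPM in Control and 233, 226 and 230 CPM in HFD, with a change of 2.09 ± 0.36 (edgeR FDR 0.0073). Neither gene overlapped between the groups. At an FDR under 0.05, 4 partner genes were higher and 2 lower, against 2.57% and 3.21% of all tested genes, and the median over the 75 was 0.19.

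In HFD+Mino against HFD, 6 partner genes were called, all lower, against 2.16% of all tested genes. At an FDR under 0.05, 20 were lower and 5 higher, against 12.9% and 14.6% of all tested genes, with a median of -0.51. By list at this limit, 5 of 8 genes of GABA synthesis and transport were lower, and 7 of 20 excitatory scaffold genes and 4 of 9 G-protein-coupled GABA and glutamate receptors were lower as well. Of 12 inhibitory postsynaptic genes 2 were lower and 2 higher, and of 18 AMPA and kainate auxiliary genes 2 were lower and 2 higher. Slc12a5, the potassium-chloride cotransporter that keeps neuronal chloride low, had 341, 429 and 480 CPM in HFD and 138, 120 and 133 CPM in HFD+Mino, with a change of -1.68 ± 0.26 (edgeR FDR 0.0042). Nptx1, a secreted pentraxin that gathers AMPA receptors, had 49.99, 50.4 and 59.1 CPM in HFD and 10.7, 13.9 and 19.3 CPM in HFD+Mino, with a change of -1.86 ± 0.26 (edgeR FDR 0.0026). Lhfpl4 had 41.1, 38.0 and 46.6 CPM in HFD+Mino, with a change of -1.86 ± 0.29 (edgeR FDR 0.0042). These 3 had no overlap with HFD. Genes of GABA uptake and breakdown are also expressed by astrocytes, whose markers were lower in HFD+Mino, and the part of that in these counts was not tested. Between HFD+Mino and Control 0 of the 75 partner genes had an FDR under 0.05 (edgeR). In the 3-way test 5 were called, all HFD-higher (0.917% of all tested genes), among them Lhfpl4, Slc12a5 and Nptx1.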

How the data were processed

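Bulk RNA-seq libraries of PVN punches from 9 mice were analysed, 3 per group, grouped by the sample labels. The libraries came from a low-input cDNA amplification kit, were cut by a transposase and sequenced in pairs. The authors aligned reads to mm10 with HISAT2, counted them per gene with featureCounts and deposited raw counts. The study's methods name no library step that keeps the strand of the RNA and no strand setting for the counting. Reads carry no molecular identifiers, so precision was taken from the spread between mice. Genes without a symbol (958 of 27179) held at most 0.0932% of a library's counts.

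Counts were tested with edgeR 4.0.16 in R 4.3.3 (filterByExpr, TMM, quasi-likelihood F-test, 1 mean per group, all 9 samples), after a check on simulated data. Replicate pairs differed beyond counting noise (lowest chi-square per degree of freedom 21.5). The replicate numbers were checked for pairing. Deviations of same-numbered Control and HFD+Mino libraries correlated at 0.135, 0.163 and 0.292, and same-numbered pairs with HFD at or below -0.006. Differently numbered pairs reached 0.167 (Control replicate 2 with HFD replicate 1). A block was fitted in Control and HFD+Mino, chosen from these same counts. Nothing in the sources says that same-numbered libraries share a litter or batch. Exon length and GC came from GENCODE M21, available for 90.1% of tested genes, and positions and upstream sequences from RefSeq GRCm38.p6. Length and GC trends were removed per library by loess (span 0.3). Other alternatives were DESeq2 1.42.0, RLE factors, no low-count filter, only the 6 samples of the groups compared, Rn45s, Rn18s and mitochondrial genes left out, and each library left out. All 27 members could be named; of the partner lists, the 3 called genes with the smallest p in each direction were. Counts of members at an FDR under 0.05 under each alternative were chosen after seeing the data. Results of the list of glutamate synthesis and transport are not reported here on their own. The members and gene lists were chosen with earlier results of these data known.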

Additional observations from a re-analysis of the deposited data

How the results depend on the processing

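The counts of members that were called moved with several choices. Percentages in brackets are the shares of all tested genes called under the same setting. In HFD against Control, 0 were called (1.74%), and 2 by DESeq2 (6.91%). A replicate block in all groups called 1 (1.64%), and the block in Control and HFD+Mino called 4 (6.22%). With that block and the length trend removed, 2 were called (5.19%). In HFD+Mino against HFD, 1 was called (4.15%), 9 by DESeq2 (23.0%) and 3 without a low-count filter (7.61%). The block in all groups called 3 (7.89%), and the block in Control and HFD+Mino called 12 (25.6%). With that block and the length trend removed, 7 were called (16.3%). With the GC trend removed 3 were called (8.05%), and with the length trend removed 0 (2.70%). In HFD+Mino against Control the block in those groups called 1 (3.18%) instead of 0 (0.0%). In the 3-way test 0 were called (2.13%), 8 by DESeq2 (13.6%) and 1 without the filter (5.19%). The block in all groups called 1 (2.81%), and the block in Control and HFD+Mino called 9 (13.2%). With that block and the length trend removed, 4 were called (8.44%). Leaving out 1 library gave 0 to 10 called in HFD+Mino against HFD (0.162 to 21.4%). It gave 0 to 1 in HFD+Mino against Control (0 to 6.28%) and 0 to 5 in the 3-way test (0.0168 to 13.4%). Each count and each share was highest without HFD+Mino replicate 3.

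At an FDR under 0.05 and any fold, edgeR gave 1, 10, 0 and 6 members in HFD against Control, HFD+Mino against HFD, HFD+Mino against Control and the 3-way test. Of all tested genes 5.77, 27.5, 0.0 and 18.4% passed. In that order the block in Control and HFD+Mino gave 11, 18, 3 and 15. Without a low-count filter 3 passed in the first and 10 in the 3-way test, with the block in all groups 3 and 11, and with the 6 samples of both groups alone 4 in the first. With the GC trend removed 2 passed in the first and 6 in the second, and with the trend on the GC-richest 100 nt removed 0 in the first. DESeq2 gave 5 in the first and 13 in the 3-way test. The block with the length trend removed gave 8, 1 and 13 in the first, the third and the 3-way test, and the length trend alone 2 and 5 in the first and second. Leaving out 1 library gave 0 to 5, 1 to 16, 0 to 6 and 0 to 15. Shares of all tested genes at this limit are not given for the alternatives. A rise in members can therefore not be set apart here from a rise over all genes. At the stricter call rule those shares were 1.74, 4.15, 0.0 and 2.13%, in the order of comparisons above. The block in Control and HFD+Mino took them to 6.22, 25.6, 3.18 and 13.2%. The cause of these moves was not tested. Of the single members' alternatives, 242 kept their side of the limit, 92 lost it, and none of them changed sign.

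The members' median moved by more than its spread between mice (SD 0.28) in 5 of 79 alternatives. It became 0.19 and 0.22 in HFD against Control, with the length trend removed with and without the block, and -0.53 and -0.44 in HFD+Mino against HFD. Without HFD+Mino replicate 3 it was -1.21 in HFD+Mino against HFD.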
